A study of Rattus norvegicus with 12 samples.

Results

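Ganglia of old rats kept on restricted food were compared with ganglia of young rats fed freely. The comparison used 8 of the 12 one-colour microarrays of the series: the 4 arrays labelled old and CR, for caloric restriction, against the 4 labelled young and normal fed. All rats were male Fischer 344, an inbred strain widely used in ageing research, and the tissue was the dorsal root ganglion at the level of L6. The young rats were 6 months old and ate ad libitum. The old restricted rats were 25 to 28 months old and since an age of 6 weeks had received food on only 3 days of each week. Their intake was restricted by about 40% relative to old rats fed ad libitum. The groups therefore differed in age and in diet at once, and no young restricted group was analysed here. Each array is labelled as a separate sample, with 4 rats stated for each group, so the p-values below measure the spread between 4 and 4 arrays.

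A dorsal root ganglion holds the cell bodies of sensory neurons, each wrapped in satellite glia, together with myelinating Schwann cells along the axons, fibroblasts, vessels and resident macrophages. The L6 ganglion carries sensation from the pelvic organs, the urinary bladder among them. Long-term restriction of food intake is known to extend lifespan in rodents and to shift daily rhythms, lipid synthesis and immune activity in many tissues. The question set by the study was how ageing alters inflammatory and oxidative genes in bladder and ganglion, and what restricted feeding does to those changes.

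Levels are given as log2 of the Agilent processed signal minus the 75th percentile of that array, so 0 is a bright probe and 1 unit is a doubling. A gene is represented by its brightest probe, and levels of different genes are not compared, since probes differ in efficiency. A gene was called when its adjusted p in limma (moderated test, Benjamini-Hochberg over all genes tested) was under 0.05. The arrays sampled whole tissue, so fewer cells of a type and less RNA per cell cannot be told apart. All 13 pan-neuronal, 18 nociceptor, 15 satellite glia and 19 myelinating Schwann cell markers on the array passed the filter on dim probes.

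The 75th percentile of signal lay between 2724 and 3110 on the 8 arrays, and 79.4% to 81.9% of gene spots were well above background. The young arrays shared slide 1 and all old arrays lay on slide 2, so slide and group cannot be told apart in the comparison with young. The mean of each of the 10 spike-in probes was higher in the old restricted arrays than in the young ones, by 0.03 to 0.16. Some young arrays stood apart. Young 1 was high in nerve injury genes, with a mean of the 25 genes tested 0.99 above the young mean, and in interferon-stimulated genes, at 0.92. On that array Gal, the neuropeptide galanin, was high: its levels were 3.43, -0.60, -0.72 and -1.09 on young 1 to 4. Vip, another neuropeptide, stood at 0.26, -5.37, -6.03 and -6.27, and Atf3, a transcription factor induced by axon injury, at 1.90, -0.30, -0.43 and -0.12. Isg15, an interferon-stimulated gene, stood at 2.06, -1.62, -1.5 and 0.77 on young 1 to 4. Young 2 was high in the 12 skeletal muscle genes tested, by 1.30, with Ckm, the muscle creatine kinase, at -5.54, -2.95, -5.53 and -5.26 on young 1 to 4. Young 4 carried a streak of dark spots: 270 of 35606 bright gene spots were over 1.5 log2 units below the median of the 8 arrays, against 0 to 31 on the other arrays, and 254 of them lay next to one another between rows 7 and 200. These spots touched 211 of the genes tested, none of which was called. With the streak set to missing, an alternative chosen after seeing the data, 931 genes were called in place of 879.

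Of 20625 genes tested, 879 were called, which is 4.26% of them. Of these, 241 (1.17%) were higher in the old restricted ganglia and 638 (3.09%) were lower. Differences were mostly small: the median size among called genes was 0.34 on the log2 scale, 25 genes were over 2-fold higher and 10 over 2-fold lower. In every called gene the 4 arrays of one group lay outside the range of the other, as they did in 15.9% of all genes tested. The median difference over all genes was -0.02. A second probe was available for 121 called genes and had the same sign in 105 (86.8%). Over all genes tested with a second probe, the sign was the same in 1673 of 2518 (66.4%). In a fit of every probe, 42 of the 121 second probes passed in the same direction. Fewer genes were called when any 1 array was left out: 121 without young 3 and 169 without old restricted 4. The counts were 253, 508 and 376 without old restricted 1, 2 and 3, and 288, 265 and 755 without young 1, 2 and 4. Genes with an unadjusted p under 0.05 numbered 4721 in the main fit and 3765 to 4774 in these fits. A fit on 7 arrays also has less power, so a lost call can be one near the threshold rather than one made by a single array. The number of calls that held in these fits on 7 arrays is therefore given for most of the lists below. Calls in dim genes also depended on the background correction. With normexp correction, which adds an offset of 50 to each signal, 687 genes were called, and 561 of the 879 (63.8%) were among them. Of the 101 called genes named here, 22 then had a difference under the printed one by more than 1.5 times, and their normexp values are given beside them.

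**Figure D1:**
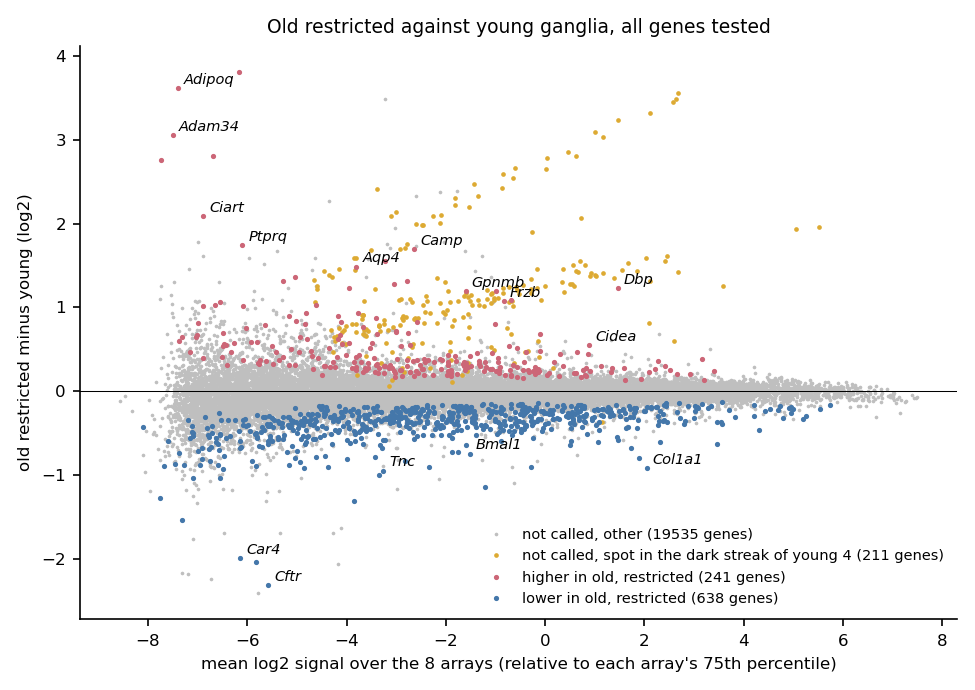
Difference between old restricted and young ganglia (log2, y axis) against the mean log2 signal over the 8 arrays (x axis), 1 point per gene. Red points mark the 241 genes called higher and blue points the 638 called lower. Yellow points, the 211 genes with a spot in the dark streak of young 4, lie along diagonals, and none of them is called.

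Clock genes differed in both directions. The circadian clock is a loop in which Bmal1 and Clock drive the Per and Cry repressors through E-box sequences, and in which the output factors Dbp and Tef act through D-box sequences. Its transcripts cycle over the day, and the hour of collection was not given in the sources used here. Of 16 clock genes tested, 5 were higher and 2 lower, with a list median of 0.13.

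Per2, a core repressor, stood at -4.58, -4.52, -4.70 and -4.48 in the 4 young arrays and -3.38, -3.55, -3.26 and -3.18 in the 4 old restricted arrays. All old restricted arrays lay above the highest young array. The difference was 1.23 ± 0.09 (SE) on the log2 scale, or 2.34-fold higher (limma adjusted p = 0.00244). Dbp, an activator of clock output genes, stood at 0.60, 0.75, 0.92 and 1.10 in the 4 young arrays and 2.06, 1.86, 2.41 and 1.96 in the 4 old restricted arrays, again without overlap. It was 2.35-fold higher, by 1.23 ± 0.14 (adjusted p = 0.0113), and its second probe gave 1.2. Tef, of the same family, was higher by a smaller 0.47 ± 0.06 (adjusted p = 0.0171), from 0.29, 0.42, 0.36 and 0.57 in the young arrays to 0.88, 0.81, 0.95 and 0.88 in the old restricted ones. With the outlier spots kept Tef differed by 0.73 and did not pass (adjusted p = 0.0747). Ciart, which represses the Bmal1 and Clock pair, was well above background on none of the young arrays and on all 4 old restricted arrays. It passed the filter on dim probes through the old restricted arrays alone. Its group means were -7.93 and -5.84, a fitted rise of 4.25-fold (adjusted p = 0.0302). Where a fold below is printed as at the bound, the dim group was set at a bound. On each array this is the higher of its own signal and the lowest signal of any probe well above background. For Ciart that rule left the fitted value unchanged, so no separate bound is given. Such a bound is no detection limit of the gene's own probe, and it holds only for the signal as the scanner software corrected it. With normexp correction Ciart differed by only 0.45 (adjusted p = 0.0558), and its call held in 1 of the 4 fits on 7 arrays in which it could be tested, the one without young 4. Those 4 fits each left out a young array, so how the call depends on single old restricted arrays was not tested. Bhlhe40, another repressor of the loop, was higher by 0.28 ± 0.05 (adjusted p = 0.026).

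Bmal1, the activator at the head of the loop, went the other way. It stood at -0.98, -1.05, -1.34 and -1.21 in the 4 young arrays and -1.96, -1.70, -2.05 and -1.85 in the 4 old restricted arrays, and every old restricted array lay below every young one. The difference was -0.74 ± 0.10, or 1.68-fold lower (adjusted p = 0.0171), with -0.74 at its second probe. Per1, a repressor beside Per2, was also lower: it stood at 0.22, 0.35, 0.12 and 0.00 in the 4 young arrays and -0.81, -0.32, -1.13 and -0.68 in the 4 old restricted arrays, a difference of -0.91 ± 0.16 (adjusted p = 0.031). Nr1d1, a repressor of Bmal1 transcription, differed by 0.66 ± 0.21 with overlapping arrays (adjusted p = 0.121), and Nfil3, which opposes Dbp at D-boxes, by -0.41 ± 0.17 (adjusted p = 0.2). Wee1, a cell cycle kinase known as a clock output and named after its values were seen, was higher by 0.54 ± 0.05 (adjusted p = 0.00673). Among the 7 clock calls, 3 held without young 3 or old restricted 4, and 4 to 7 held without any 1 of the other arrays. In the fits without an old restricted array, Ciart was untested and is counted there as not held. Per2, Dbp, Bmal1 and Wee1 were called in all 8 fits on 7 arrays.

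The promoters of these genes are shown because the E-box and D-box are the sequences through which clock factors are known to act. Both strands were searched for the E-box CACGTG and for the D-box letters TTATGTAA and TTATGCAA in RefSeq promoters of build GRCr8, from 250 bases before to 50 after the annotated start. All 7 called clock genes had an entry. An E-box lay in 3 of them, Tef, Bhlhe40 and Ciart, and these were also the only clock genes with one among the 15 tested that had a promoter entry. Of all 33469 promoters in the table, 6.42% held an E-box and 1.73% a D-box. Ciart held 3 E-boxes, whose first bases lay at -93, -35 and -21 relative to its start, and Per2 a D-box at -192. The 250 bases before the start are printed 5′ to 3′ on the gene's strand with the matched letters in capitals, for Ciart (chr2:186112247-186112496, minus strand), Per2 (chr9:99496994-99497243, minus strand), Tef (chr7:115206577-115206826, plus strand) and Bhlhe40 (chr4:143174200-143174449, plus strand). A match describes the letters only and is no measure of binding.
Ciart: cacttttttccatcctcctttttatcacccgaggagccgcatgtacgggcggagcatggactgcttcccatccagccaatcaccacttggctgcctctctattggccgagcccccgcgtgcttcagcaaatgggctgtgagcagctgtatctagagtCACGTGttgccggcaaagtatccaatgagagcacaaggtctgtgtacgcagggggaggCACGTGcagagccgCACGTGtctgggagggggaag
Per2: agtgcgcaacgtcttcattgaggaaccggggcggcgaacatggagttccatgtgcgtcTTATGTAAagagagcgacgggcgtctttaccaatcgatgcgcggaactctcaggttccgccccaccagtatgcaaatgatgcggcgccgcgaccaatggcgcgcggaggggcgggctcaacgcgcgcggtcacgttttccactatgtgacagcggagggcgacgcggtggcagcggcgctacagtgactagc
Tef: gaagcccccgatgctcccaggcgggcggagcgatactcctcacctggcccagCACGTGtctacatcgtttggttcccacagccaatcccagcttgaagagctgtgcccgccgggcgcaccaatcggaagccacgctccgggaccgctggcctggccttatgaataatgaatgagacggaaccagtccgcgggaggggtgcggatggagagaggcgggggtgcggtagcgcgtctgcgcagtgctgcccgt
Bhlhe40: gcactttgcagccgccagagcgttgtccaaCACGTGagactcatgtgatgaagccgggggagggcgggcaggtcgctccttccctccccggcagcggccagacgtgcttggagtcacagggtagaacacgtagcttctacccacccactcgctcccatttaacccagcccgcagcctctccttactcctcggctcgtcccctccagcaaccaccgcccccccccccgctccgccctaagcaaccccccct

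In the old rats fed ad libitum, Per2, Dbp, Tef and Bmal1 lay near the young level. Old ad libitum array 1 was left out of all values here, since 4026 of its spots were non-uniform against 1 to 208 on the 8 arrays. In a fit of the other 11 arrays, which shares the restricted and young arrays with the main comparison, old ad libitum minus young was 0.06 for Per2, 0.10 for Dbp, 0.06 for Tef and -0.10 for Bmal1. Both old groups lay on slide 2, the ad libitum arrays in its row 1 and the restricted arrays in its row 2, so position on the slide and diet cannot be told apart between them. Old restricted minus old ad libitum was 1.16 ± 0.10 for Per2 (adjusted p = 0.00858), 1.13 ± 0.14 for Dbp (adjusted p = 0.0285), 0.41 ± 0.06 for Tef (adjusted p = 0.0339) and -0.64 ± 0.10 for Bmal1 (adjusted p = 0.0376). Old ad libitum against young gave 672 calls (3.26%) in that fit. Old ad libitum 4 was kept in it, although dim probes read high there. The lower quartile of its signals was 79.7, where old ad libitum 2 and 3 gave 42.9 and 43.5. Non-uniform spots numbered 190 on it, and 8 and 24 on those arrays. A dim spike-in probe, E1A_r60_3, stood at -7.30 on it and at -8.84 and -8.81 on those arrays. Old ad libitum values of dim genes include this array. The 4 clock calls between the old groups are among 222 of 20625 genes (1.08%) called, and the call of Per2 held when any 1 of the 11 arrays was left out. The call held in 7 of those 11 fits for Dbp, in 5 for Tef and in 3 for Bmal1. With all 12 arrays in the fit, limma called 0 genes between the old groups, and 1196 had an unadjusted p under 0.05. Leaving out single arrays moved the 222 calls on 11 arrays to 1 without old restricted 4, 2 without old ad libitum 4 and 910 without old ad libitum 2. Per1 and Bhlhe40 did not pass between the old groups, and old ad libitum minus young was -0.67 for Per1 and 0.42 for Bhlhe40. For these 2 genes, old restricted minus old ad libitum was -0.24 (adjusted p = 0.484) and -0.14 (adjusted p = 0.189).

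**Figure D2:**
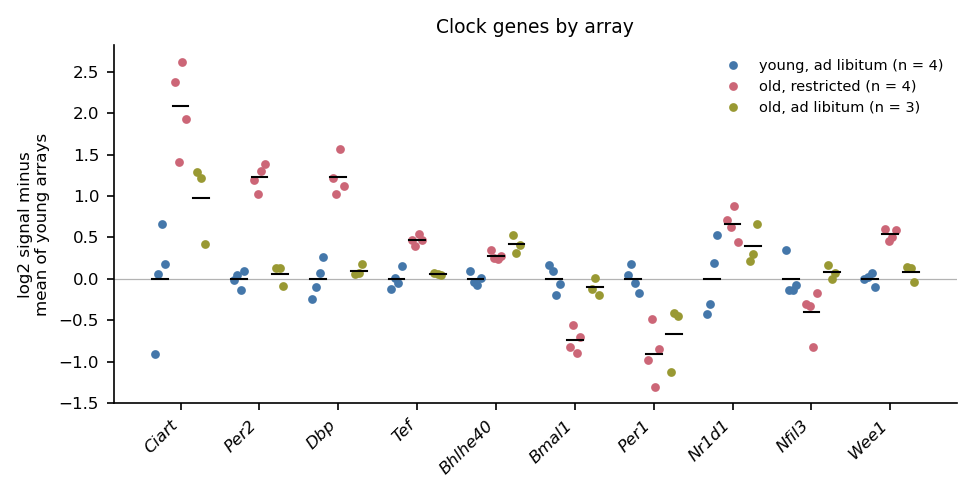
Log2 signal of 10 clock genes minus the mean of the 4 young arrays (y axis), 1 point per array and a bar at each group's mean. Old ad libitum array 1 is left out. Per2, Dbp and Tef are high and Bmal1 low on the 4 old restricted arrays, while the old ad libitum arrays lie near the young ones for these genes.

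Genes of the extracellular matrix were lower in the old restricted ganglia. Collagens and basement membrane proteins form the sheaths around nerve fibres and vessels, and the list held 26 tested genes, of which 8 were lower and none higher, with a median of -0.19. Its mean lay between -0.11 and 0.10 in the young arrays and between -0.37 and -0.13 in the old restricted arrays.

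Col1a1, a chain of the main fibrillar collagen, stood at 2.51, 2.40, 2.5 and 2.59 in the 4 young arrays and 1.63, 1.93, 1.26 and 1.51 in the 4 old restricted arrays. Every young array lay above every old restricted array. The difference was -0.92 ± 0.13, or 1.89-fold lower (adjusted p = 0.018), and the second probe gave -0.74. Its partner chain Col1a2 was lower by 1.38-fold, at -0.47 ± 0.10 (adjusted p = 0.0406), and Col3a1, the collagen of fine fibrils, by 1.6-fold, at -0.68 ± 0.13 (adjusted p = 0.0337). Serpinh1, the chaperone that folds collagen in the endoplasmic reticulum, differed by -0.55 ± 0.11 (adjusted p = 0.0411).

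Of the basement membrane, Col4a1, Lamc1 and Nid2 were also called lower, but the falls of Lamc1 and Nid2 depended on the spots or the probe used. Col4a1, the basement membrane collagen, stood at 2.67, 2.64, 2.61 and 2.55 in the 4 young arrays and 1.93, 2.20, 1.87 and 2.02 in the 4 old restricted arrays, with no overlap and 1.53-fold lower in the old restricted group, a difference of -0.61 ± 0.07 (adjusted p = 0.0116). Lamc1, a laminin chain shared by most laminins, differed by -0.28 ± 0.06 (adjusted p = 0.0377), but by -0.010 (adjusted p = 0.985) when the outlier spots were kept, and it was called in none of the 8 fits on 7 arrays. Nid2, the linker protein nidogen 2, differed by -0.51 ± 0.06 (adjusted p = 0.0118) at its brightest probe, but by 0.83 at its second (adjusted p = 0.733), and the mean of its probes gave 0.16. Col14a1, a collagen on fibril surfaces, differed by -0.60 ± 0.08 (adjusted p = 0.0162) and by -0.50 at its second probe. Sparc, a collagen-binding protein, was lower on all 4 old restricted arrays at -0.33 ± 0.09 and did not pass (adjusted p = 0.0735). Of the 8 calls, 3 held without young 3 or old restricted 4, and 4 to 7 held without any 1 of the other arrays, and Col4a1, Nid2 and Col14a1 were called in every one of those 8 fits.

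Other matrix genes outside that list were among the largest falls. Tnc, the matrix glycoprotein tenascin C, stood at -2.56, -2.62, -2.70 and -3.24 in the 4 young arrays and -3.59, -3.50, -3.78 and -4.06 in the 4 old restricted arrays, or 1.93-fold lower (adjusted p = 0.034). Cnmd, a membrane glycoprotein of cartilage and other poorly vascularised tissue, was 1.74-fold lower, from 2.39, 2.31, 2.40 and 2.04 to 1.54, 1.76, 1.32 and 1.33 (adjusted p = 0.0215). Of 21 matrix proteases and inhibitors, 2 proteases were lower and none higher: the aggrecan-cleaving Adamts5 at -0.47 ± 0.06 (adjusted p = 0.0143) and the membrane-bound Mmp14 at -0.45 ± 0.08 (adjusted p = 0.031). Adamts5 was called in all 8 fits on 7 arrays, and Mmp14 in 2 of them, without young 2 and without old restricted 2. Of 13 fibroblast markers, 4 were lower: the 3 fibrillar collagen chains and Cd34, at -0.53 ± 0.07 (adjusted p = 0.018). With normexp Cd34 differed by -0.17 and did not pass (adjusted p = 0.0928). The list's median was 0.01, and markers that are not collagens, such as Dcn, Lum and Pdgfra, did not pass. Between the old groups Cd34 differed by -0.53 ± 0.10 (adjusted p = 0.0494), a call that held in 1 of the 11 fits with 1 array left out, and by -0.15 with all 12 arrays (adjusted p = 0.794). Of the fibroblast calls, 0 held without young 3, and 1 to 4 held without any 1 of the other arrays.

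The mean of the whole collagen and basement membrane list ran from -0.19 to 0.11 on the old ad libitum arrays. For the following called matrix genes these arrays gave negative values too. Relative to young they were at -0.61 for Col1a1, -0.53 for Col3a1, -0.63 for Col4a1, -0.56 for Col14a1, -0.79 for Tnc and -0.63 for Cnmd. Old restricted minus old ad libitum was -0.31 ± 0.16 for Col1a1 (adjusted p = 0.251) and 0.01 ± 0.08 for Col4a1 (adjusted p = 0.928). No collagen or basement membrane gene named here was called between the old groups.

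Myelin genes were lower as well. Myelinating Schwann cells wrap sensory axons in membrane rich in galactosylceramide lipids. Of 19 markers tested, 5 were lower and none higher, and the list's median of -0.39 was well below the -0.02 of all genes. The list's mean lay between -0.11 and 0.12 in the young arrays and between -0.52 and -0.12 in the old restricted arrays, with old restricted 2 nearest to the young arrays.

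Pmp22, a protein of compact myelin, was lower by 1.23-fold, at -0.30 ± 0.06 (adjusted p = 0.0341). Another 3 calls were enzymes of myelin lipids, which act in sequence: Fa2h makes hydroxylated fatty acids, Ugt8 adds galactose to ceramide, and Gal3st1 sulfates the product. Fa2h differed by -0.52 ± 0.10 (adjusted p = 0.0355). Ugt8 stood at -1.57, -1.33, -1.30 and -1.83 in the 4 young arrays and -2.36, -2.08, -2.27 and -2.23 in the 4 old restricted arrays. The groups did not overlap, and the difference was -0.73 ± 0.12, or 1.66-fold lower (adjusted p = 0.026). Gal3st1 differed by -0.49 ± 0.06 (adjusted p = 0.0111) and was the only 1 of the 5 called in every fit on 7 arrays. Mag and Mbp, also myelin proteins, did not pass, at -0.42 ± 0.10 (adjusted p = 0.0546) and -0.18 ± 0.06 (adjusted p = 0.118). Of the 5 myelin calls, 1 held without young 1, young 2, young 3, old restricted 1, old restricted 3 or old restricted 4, and 4 to 5 held without any 1 of the other arrays.

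Satellite glia genes were mixed. Of 15 markers, 4 were lower and 1 higher, with a median of -0.09. Slc1a3, the glutamate transporter GLAST, stood at -0.17, -0.24, -0.12 and -0.22 in the 4 young arrays and -0.53, -0.59, -0.53 and -0.71 in the 4 old restricted arrays, with every old restricted array below every young one, a difference of -0.40 ± 0.05 (adjusted p = 0.0143) and -0.29 at its second probe. Fabp7, a fatty acid binding protein of glia, was 1.52-fold lower (adjusted p = 0.0246). Entpd2, an ectonucleotidase that breaks down ATP, was 1.35-fold lower (adjusted p = 0.0308). Sox10, the transcription factor of all peripheral glia, was 1.24-fold lower (adjusted p = 0.0467). Glul, glutamine synthetase, differed by 0.20 ± 0.07 and did not pass (adjusted p = 0.135). Aqp4, a water channel of glia, was the exception and stood at -4.82, -4.37, -4.56 and -4.44 in the 4 young arrays and -3.17, -3.12, -3.13 and -2.82 in the 4 old restricted arrays, a rise of 2.8-fold (adjusted p = 0.00299). Its second probe differed by only 0.03 (adjusted p = 0.846), so the rise belongs to 1 of its 2 probes, and the mean of both gave 0.76.

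Further glial calls came from 8 markers of non-myelinating Schwann cells, both lower: Sox2, at -0.34 ± 0.06 (adjusted p = 0.0255), and Adam23, at -0.19 ± 0.03 (adjusted p = 0.034). Sox2's second probe gave 0.69 (adjusted p = 0.681), and the mean of its probes 0.17. Of the 5 satellite glia calls, 2 held without young 1, young 2, young 3, old restricted 1, old restricted 3 or old restricted 4, and 4 to 5 held without any 1 of the other arrays, and Aqp4 and Slc1a3 were called in all 8 of those fits. Of the 2 non-myelinating calls, 0 held without young 1, young 2, young 3, old restricted 1 or old restricted 4, and 1 held without any 1 of the other arrays.

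Set beside these, old ad libitum minus young was -0.58 for Ugt8 and -0.36 for Gal3st1. It was -0.24 for Fabp7, -0.04 for Slc1a3 and 0.48 for Aqp4. Old restricted minus old ad libitum passed for Slc1a3, at -0.36 ± 0.05 (adjusted p = 0.0288), and for Aqp4, at 1.0 ± 0.16 (adjusted p = 0.0363), in 5 and 3 of the 11 fits with 1 array left out. For Ugt8 it was -0.15 ± 0.15 (adjusted p = 0.54).

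**Figure D3:**
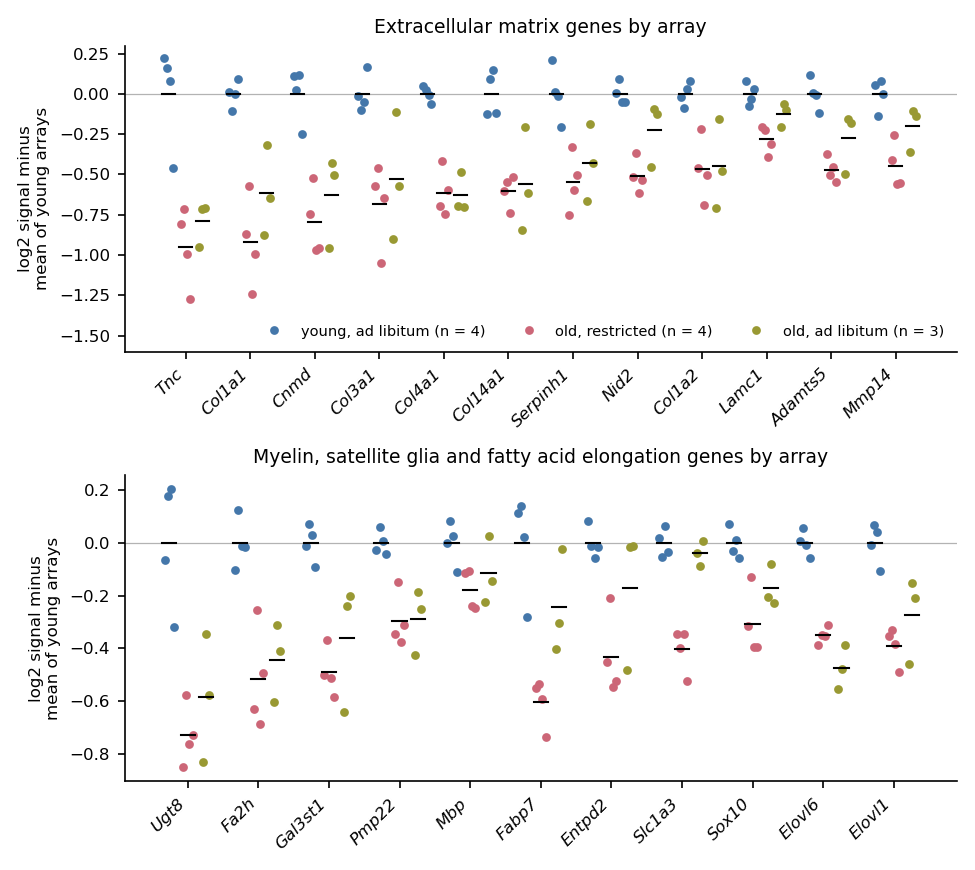
Log2 signal of matrix genes (upper panel) and of myelin, satellite glia and fatty acid elongation genes (lower panel) minus the mean of the 4 young arrays, 1 point per array and a bar at each group's mean, with old ad libitum array 1 left out. Old restricted arrays lie below 0 for each gene plotted, and the means of the 3 old ad libitum arrays lie below 0 as well, nearest to 0 for Slc1a3.

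Lipid synthesis genes showed small falls. Of 19 genes of fatty acid synthesis, elongation and desaturation, 6 were lower and none higher. Elovl6, which lengthens saturated chains of 16 carbons, stood at 2.57, 2.62, 2.55 and 2.5 in the 4 young arrays and 2.17, 2.21, 2.21 and 2.25 in the 4 old restricted arrays, and no array overlapped. The difference was -0.35 ± 0.04, or 1.27-fold lower (adjusted p = 0.00897), with -0.64 at the second probe. Elovl1, the elongase of very long chains, was 1.31-fold lower (adjusted p = 0.0171) and Elovl2, an elongase of polyunsaturated chains, 1.13-fold lower (adjusted p = 0.0408). The desaturases Scd, Scd2 and Fads2 differed by -0.26 ± 0.05, -0.19 ± 0.04 and -0.33 ± 0.06 (adjusted p = 0.0273, 0.0377 and 0.0273). Of the 6 calls, 1 held without young 3, and 2 to 5 held without any 1 of the other arrays. Elovl6 was called in all 8 of those fits.

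Of 25 genes of cholesterol synthesis and uptake, 4 were lower and 1 higher, and 23 of the 25 differences were below 0, with a median of -0.11. The 4 falls were each under 1.2-fold. They were Cyp51, a demethylase of lanosterol, at -0.20 ± 0.03 (adjusted p = 0.0231), Hmgcs1, the synthase that makes HMG-CoA, at -0.16 ± 0.03 (adjusted p = 0.0377), Idi1, an isomerase of the isoprenoid steps, at -0.19 ± 0.04 (adjusted p = 0.0422), and Stard4, a sterol carrier, at -0.23 ± 0.04 (adjusted p = 0.0244). Of the 5 calls, 1 held without young 2, young 3, old restricted 1 or old restricted 4, and 2 to 4 held without any 1 of the other arrays. The sterol element letters TCACCCCAC or TCACCCCAT were in the promoter of none of the called lipid genes that had an entry, 5 of fatty acid and 3 of cholesterol synthesis, against 0.705% of all promoters. Old ad libitum minus young was -0.47 for Elovl6 and -0.44 for Scd, and none of the lipid genes named here was called between the old groups.

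Markers of immune cells that were called were all higher, while chemokines and cytokines were mixed. Among 26 macrophage markers, 4 were higher and none lower, and 24 differences were above 0, with a median of 0.29. The list's mean lay between -0.39 and 0.22 in the young arrays and between 0.26 and 0.75 in the old restricted arrays, with young 2 lowest.

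Gpnmb, a glycoprotein of lipid-laden macrophages, stood at -2.13, -2.40, -2.32 and -1.94 in the 4 young arrays and -0.83, -0.77, -1.22 and -1.2 in the 4 old restricted arrays, a rise of 2.29-fold (adjusted p = 0.0118) that was called in all 8 fits on 7 arrays. Lyve1, a hyaluronan receptor of perivascular macrophages and lymphatic vessels, was 1.77-fold higher (adjusted p = 0.0186). Cd163, the haemoglobin scavenger receptor, stood at -4.18, -4.03, -3.71 and -2.83 in the 4 young arrays and -2.27, -2.27, -2.57 and -2.51 in the 4 old restricted arrays, and no array overlapped. The rise was 2.44-fold (adjusted p = 0.0471). Fcgr2b, the inhibitory Fc receptor, was 2.5-fold higher (adjusted p = 0.032), with 0.16 at its second probe (adjusted p = 0.657) and 0.74 for the mean of both. Csf1r, the receptor macrophages need to survive, did not pass, at 0.09 ± 0.17 (adjusted p = 0.772). Cd68 differed by 1.35 ± 0.79 (adjusted p = 0.356), but its levels on young 1 to 4 were -1.70, -2.34, -1.93 and -5.46 and the spot on young 4 lay in the dark streak, and without the streak the difference was 0.35 (adjusted p = 0.41). Of the 4 macrophage calls, 1 held without young 2, young 3 or old restricted 4, and 2 to 4 held without any 1 of the other arrays.

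The neutrophil and marrow list had the largest median of all lists, 1.40 over 10 genes tested, of which only Camp was called. Camp, the antimicrobial peptide cathelicidin, stood at -3.64, -3.83, -3.27 and -3.18 in the 4 young arrays and -1.41, -2.04, -2.05 and -1.65 in the 4 old restricted arrays, a rise of 3.23-fold (adjusted p = 0.0111) called in all 8 fits on 7 arrays. S100a8 and S100a9, the calprotectin subunits, stood higher on all 4 old restricted arrays than on any young array, but the young arrays spread widely: S100a8 was at -2.90, -2.73, -1.45 and -1.47 on young 1 to 4. They differed by 1.43 ± 0.36 and 1.36 ± 0.39 (adjusted p = 0.0692 and 0.0954). Np4, a neutrophil defensin, differed by 2.38 ± 0.62 (adjusted p = 0.074), and Ngp, a granule protein, by 1.30 ± 0.32 (adjusted p = 0.0628). Without young 4, whose mean of the list was 0.71, 5 of the 10 were called higher. Elane, Ltf, Mmp8 and Mmp9, further genes of that list on the array, were not well above background on enough arrays to be tested.

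Lymphocyte genes gave 2 rises in 14 T cell markers, Cd8a at 1.06 ± 0.19 (adjusted p = 0.0299) and Cd8b at 0.27 ± 0.06 (adjusted p = 0.0423), which form the coreceptor of cytotoxic T cells. All 14 differences were above 0. With normexp Cd8a differed by 0.34 and did not pass (adjusted p = 0.0898). Of these 2 calls, 0 held without young 1, young 2, young 3, old restricted 1, old restricted 2 or old restricted 3, and 1 to 2 held without any 1 of the other arrays. None of 9 NK and cytotoxic genes was called. Among 21 complement genes, 2 were higher. Fcna, a ficolin that starts the lectin pathway, was 2.48-fold higher, from -5.93, -6.54, -5.84 and -5.43 in young to -4.47, -4.69, -4.64 and -4.70 in old restricted arrays (adjusted p = 0.024), or 0.66 on the log2 scale with normexp. Cfd, or adipsin, the protease of the alternative pathway, stood at -1.35, -1.57, -1.22 and -0.80 in the 4 young arrays and -0.09, -0.14, -0.09 and -0.25 in the 4 old restricted arrays, or 2.13-fold higher (adjusted p = 0.0171). Of the complement calls, 0 held without young 3, and 1 to 2 held without any 1 of the other arrays.

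Calls among signalling genes of the immune system went in both directions. Of 31 chemokines and receptors 2 were lower and none higher. Cx3cl1, or fractalkine, a membrane-bound chemokine of neurons, stood at 0.96, 0.78, 0.83 and 0.68 in the 4 young arrays and 0.29, 0.28, 0.01 and 0.12 in the 4 old restricted arrays, a difference of -0.64 ± 0.08 (adjusted p = 0.0155). Cxcr4, the receptor for Cxcl12, fell by 1.41-fold (adjusted p = 0.0231), and Cx3cr1, the receptor of fractalkine, was lower on all 4 old restricted arrays at -0.46 ± 0.13 without passing (adjusted p = 0.0828). Of 21 cytokines and receptors, Il6r, the interleukin 6 receptor, was 1.54-fold higher (adjusted p = 0.026), while Il34, a second ligand of Csf1r, and Lif were lower by 1.23-fold and 1.13-fold (adjusted p = 0.0274 and 0.031). Tnf differed by 0.27 ± 0.29 (adjusted p = 0.607) and Il1b by -0.41 ± 0.30 (adjusted p = 0.454). None of 28 interferon-stimulated genes, 12 genes of MHC class I loading or 10 of MHC class II was called, against 4.26% of all genes. Of the 2 chemokine calls, 0 held without young 3, and 1 to 2 held without any 1 of the other arrays, and of the 3 cytokine calls, 0 held without young 1, young 3, old restricted 1 or old restricted 4, and 1 to 2 held without any 1 of the other arrays.

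The macrophage and complement lists also lay above the young mean in the old ad libitum arrays, while the interferon-stimulated list lay between -0.13 and 0.05. The NK list lay above the young mean there, but not throughout the old restricted arrays. In the restricted arrays its mean lay between -0.34 and 0.30, against -0.22 to 0.21 in the young ones. On the 3 old ad libitum arrays the macrophage list's mean lay between 0.68 and 1.0, the complement list's between 0.45 and 0.97 and the NK list's between 0.83 and 2.77. Relative to young these arrays were at 1.48 for Gpnmb, 1.81 for Cd163, 2.28 for Camp, 1.99 for Cfd and 2.21 for Cd8a. Old restricted minus old ad libitum was -0.90 ± 0.22 for Cfd (adjusted p = 0.068), -1.15 ± 0.34 for Cd8a (adjusted p = 0.0924) and -0.59 ± 0.20 for Camp (adjusted p = 0.115), none of which passed. For Cx3cl1, old ad libitum minus young was 0.11, and the difference was -0.75 ± 0.09 between the old groups, which passed (adjusted p = 0.0244) and held in 8 of the 11 fits with 1 array left out.

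**Figure D4:**
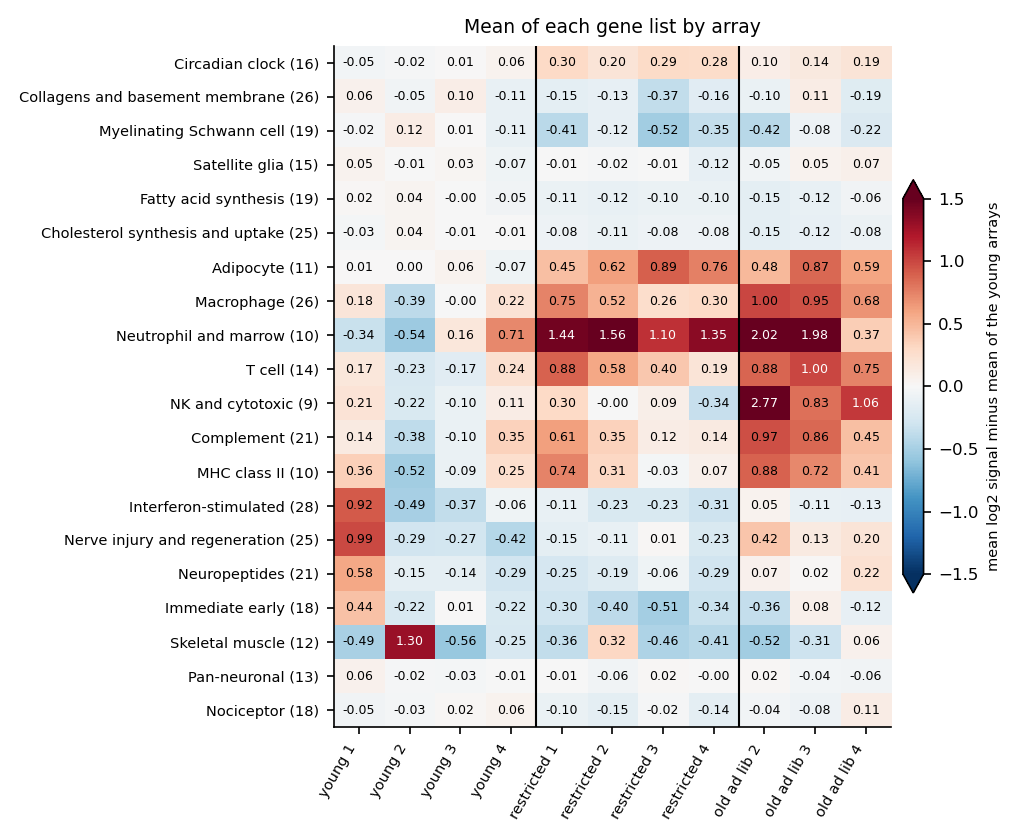
Mean log2 signal of 20 gene lists (genes tested in brackets) on each array minus the mean of the 4 young arrays, with old ad libitum array 1 left out. Macrophage, neutrophil and T cell lists are positive on every old array, the nerve injury and interferon lists stand out on young 1 at 0.99 and 0.92, and the skeletal muscle list on young 2 at 1.30.

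The called differences in oxidative genes, which the study's title names, were small. None of 9 NADPH oxidase genes was called, which a list so short may show when 4.26% of all genes are called. Cybb, the catalytic subunit of the phagocyte enzyme, differed by 0.15 ± 0.23 (adjusted p = 0.725). Of 35 antioxidant genes, 4 were higher and 1 lower, against 1.17% and 3.09% of all genes, with a median of 0.02. Gpx7, a glutathione peroxidase of the endoplasmic reticulum, stood at -0.96, -1.05, -1.06 and -1.06 in the 4 young arrays and -1.51, -1.35, -1.56 and -1.54 in the 4 old restricted arrays, the only fall and the only call of the 5 that held in all 8 fits on 7 arrays (-0.46 ± 0.05, adjusted p = 0.0113). The rises were each under 1.25-fold: Gsta1 and Gstp1, which conjugate glutathione, by 1.23-fold and 1.17-fold (adjusted p = 0.031 and 0.0397), Hmox1, haem oxygenase 1, by 1.15-fold (adjusted p = 0.0337), and Gss, glutathione synthetase, by 1.11-fold (adjusted p = 0.0473). Among 39 oxidative phosphorylation subunits only Uqcrq, of complex III, was called, at -0.19 ± 0.04 (adjusted p = 0.049). With normexp it differed by -0.12 and did not pass (adjusted p = 0.0896), and it was called in none of the fits on 7 arrays. The antioxidant calls numbered 1 in each of those fits except without young 4, where 4 held.

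Several neuronal lists held no call. None of 13 pan-neuronal, 18 nociceptor, 13 sodium channel, 38 potassium channel, 17 calcium channel or 21 neuropeptide genes passed. With 4.26% of all genes called, lists of these sizes may hold no call, so these counts do not set neuronal genes apart. Of 18 markers of large-diameter neurons 2 were lower, against 3.09% of all genes, both neurofilament subunits that set the calibre of large axons. Nefh stood at 4.82, 4.82, 4.81 and 4.78 in the 4 young arrays and 4.57, 4.53, 4.62 and 4.6 in the 4 old restricted arrays, so the groups were apart although the fall was only 1.17-fold (adjusted p = 0.0186). Nefl fell by 1.16-fold (adjusted p = 0.0199), and the third subunit, Nefm, was lower on every old restricted array, at -0.13 ± 0.03, and did not pass (adjusted p = 0.0692). Of the neurofilament calls, 0 held without young 3 or old restricted 4, and 1 to 2 held without any 1 of the other arrays. Old ad libitum minus young was -0.25 for Nefh and -0.31 for Nefl.

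Bdnf, the growth factor that sensory neurons release in the spinal cord, was the only call among 17 neurotrophins and receptors. It stood at -3.44, -3.49, -3.37 and -3.80 in the 4 young arrays and -4.11, -4.03, -4.11 and -4.22 in the 4 old restricted arrays, a fall of 1.51-fold (adjusted p = 0.0236) that was called in 2 of 8 fits on 7 arrays, without young 4 and without old restricted 2. Among 31 transmitter receptors, Cnr1, the CB1 cannabinoid receptor, was 1.29-fold higher (adjusted p = 0.0158) with 0.32 at its second probe. Glra2, a glycine receptor subunit, was 1.23-fold lower (adjusted p = 0.0258). Of the 3 calls in that list, 2 higher and 1 lower, 0 held without young 3, and 1 to 3 held without any 1 of the other arrays. P2rx7, an ATP-gated channel, was 1.25-fold lower (adjusted p = 0.0465), and Sv2a, a synaptic vesicle protein, 1.16-fold higher (adjusted p = 0.042). Neither was called in any fit on 7 arrays. With normexp P2rx7 differed by -0.12 on the log2 scale and did not pass (adjusted p = 0.215). Chat, which makes acetylcholine and was the only call of a fall among 10 markers of central glia and spinal cord, differed by -0.48 ± 0.10 (adjusted p = 0.0385). With normexp it differed by -0.043 and did not pass (adjusted p = 0.708). Of the 2 calls in that list, Chat and Aqp4, 1 held without young 1, young 3, young 4, old restricted 1, old restricted 2, old restricted 3 or old restricted 4, and 2 held without any 1 of the other arrays, since Chat was called in 1 of the 8 fits. Reg3a, a lectin that injured sensory neurons make, stood at -2.03, -1.54, -1.26 and -1.56 in the 4 young arrays and -0.57, -0.57, 0.19 and -0.66 in the 4 old restricted arrays, or 2.29-fold higher (adjusted p = 0.0353), and its neighbour in family Reg3b differed by 0.83 ± 0.27 (adjusted p = 0.121). They are related lectins, and their probes may read each other's RNA. Reg3a was called in 1 of 8 fits on 7 arrays, the one without old restricted 3, the array highest in both. Old ad libitum minus young was 2.62 for Reg3a.

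The old groups differed in Bdnf, where old restricted minus old ad libitum was -0.65 ± 0.09 (adjusted p = 0.0288) and old ad libitum minus young was 0.05. The call held in 5 of the 11 fits with 1 array left out.

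Stress and growth genes gave single calls. Hsph1, a chaperone of the heat shock family, was 1.31-fold lower (adjusted p = 0.0417) and was the only call in its list. A heat shock element lay in the promoters of 6 of the 17 tested list members with an entry, Hsph1 among them, against 0.798% of all promoters. Atf4, the transcription factor of the integrated stress response, was 1.16-fold lower (adjusted p = 0.0336). Of 18 immediate early genes, which respond within minutes to activity, Egr4 and Nr4a2 were lower by 1.36-fold and 1.27-fold (adjusted p = 0.0299 and 0.0382), and 17 of 18 differences were below 0, with a median of -0.35. The mean of that list was 0.44 on young 1, against -0.22, 0.01 and -0.22 on the other young arrays. Bub1, a checkpoint kinase of mitosis, differed by -0.35 ± 0.04 (adjusted p = 0.0118) and was called in all 8 fits on 7 arrays, and Ccnd2, cyclin D2, differed by -0.47 ± 0.10 (adjusted p = 0.0488) and was called in 1. Pink1, which marks damaged mitochondria, and Gaa, the lysosomal glucosidase, were higher by 1.15-fold and 1.17-fold (adjusted p = 0.0377 and 0.0258), while Ctsz, a cathepsin, was lower by 1.32-fold (adjusted p = 0.0186). Of the calls in these lists, those of Hsph1, Egr4, Nr4a2, Atf4, Ccnd2, Pink1 and Gaa held in 1 to 3 of the 8 fits and that of Ctsz in 6, without any 1 array but young 3 or old restricted 4. No call was made among 10 sirtuin and NAD genes, 26 insulin and IGF signalling genes, 26 proteasome subunits or 37 cytosolic ribosomal proteins. Over all genes 4.26% were called.

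The largest single rise among genes with a symbol was that of an adipocyte gene. Adipoq, the hormone adiponectin, was well above background on none of the young arrays, which stood at -9.14, -9.08, -9.12 and -9.49, and on all old restricted arrays, at -6.51, -5.88, -4.54 and -5.41. The group means were -9.21 and -5.58 (adjusted p = 0.00897), a rise of 9.99-fold with the young arrays set at the bound. Adipoq passed the filter on dim probes through the old restricted arrays alone. Only the 4 fits on 7 arrays that left out a young array could test it, and all 4 called it. How the call depends on single old restricted arrays was not tested. With normexp Adipoq differed by 0.91 and did not pass (adjusted p = 0.0514). Of 11 adipocyte genes tested, 3 were higher and 1 lower. Besides Adipoq and Cfd, Cidea, a lipid droplet protein, was 1.46-fold higher (adjusted p = 0.0251), and Lpl, which releases fatty acids from lipoproteins, was 1.35-fold lower (adjusted p = 0.026), or -0.19 on the log2 scale with normexp. The list's mean lay between -0.07 and 0.06 in the young arrays and between 0.45 and 0.89 in the old restricted arrays, and between 0.48 and 0.87 on the old ad libitum arrays. Of the 4 calls, 1 held without young 3, old restricted 1 or old restricted 4, and 2 to 4 held without any 1 of the other arrays. In the fits without an old restricted array, Adipoq was untested and is counted there as not held. How far fat beside the ganglion contributed was not tested.

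Genes known to respond to fasting and glucocorticoids gave 3 calls of 25. Klf15, a transcription factor of amino acid breakdown, stood at -0.76, -0.43, -0.41 and -0.22 in the 4 young arrays and 0.29, 0.18, 0.05 and 0.43 in the 4 old restricted arrays, or 1.61-fold higher (adjusted p = 0.031). Angptl4, which blocks Lpl and usually rises in fasting, was 1.36-fold lower (adjusted p = 0.0337), and Per1, also induced by glucocorticoids, is given above. Fkbp5, a glucocorticoid target, was higher on all 4 old restricted arrays, at 0.44 ± 0.10, and did not pass (adjusted p = 0.0522). Of these 3 calls, 0 held without young 2, young 3, old restricted 1 or old restricted 4, and 1 to 2 held without any 1 of the other arrays. The time since the last meal was not given in the sources used here. Between the old groups Angptl4 differed by -0.49 ± 0.08 (adjusted p = 0.0404), a call that held in 2 of the 11 fits with 1 array left out, and Klf15 by 0.61 ± 0.16 (adjusted p = 0.0747).

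**Figure D5:**
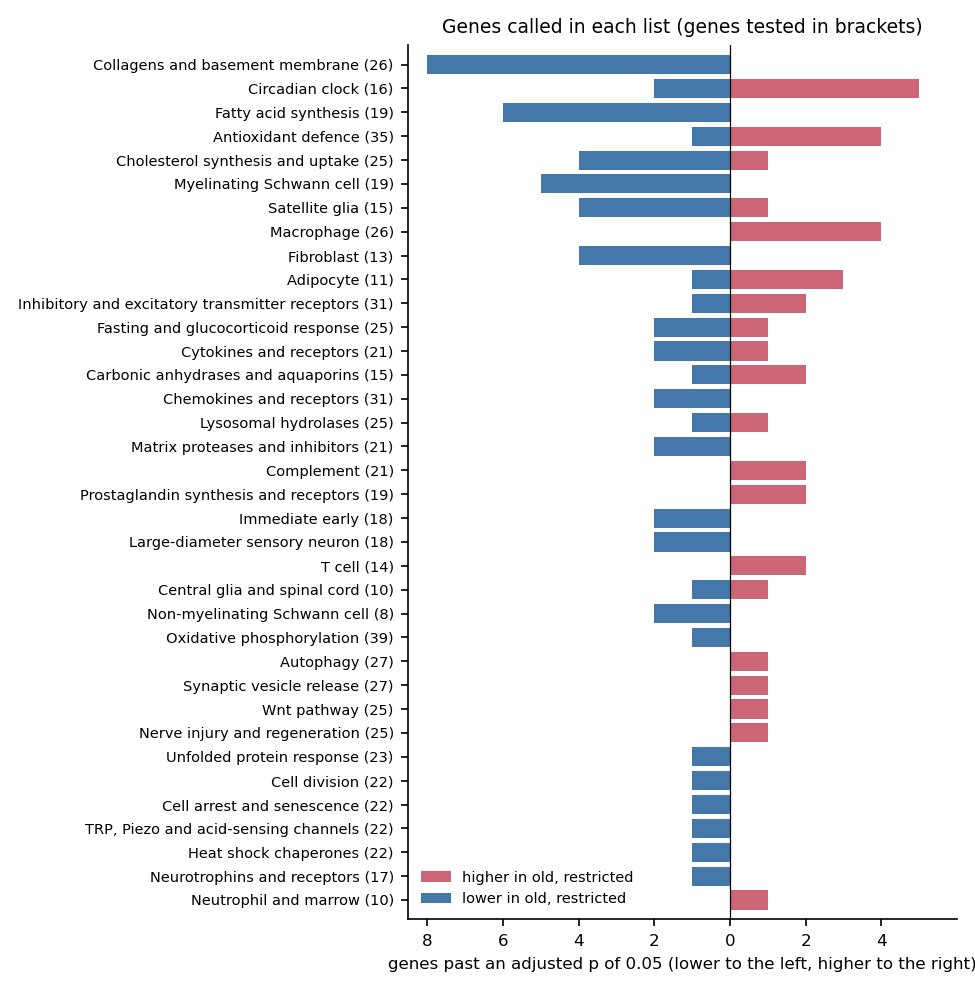
Number of genes called lower (blue, to the left) and higher (red, to the right) in old restricted ganglia for the 36 of 58 gene lists with at least 1 call, with the number of genes tested in brackets. Collagens and basement membrane lead the falls with 8 of 26, and the clock leads the rises with 5 of 16. Ciart, 1 of those 5, passed the filter on dim probes through the old restricted arrays alone.

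Among the remaining large differences, Frzb, a secreted antagonist of Wnt ligands, stood at -1.74, -1.38, -1.23 and -1.16 in the 4 young arrays and -0.28, -0.25, -0.35 and -0.32 in the 4 old restricted arrays, or 2.11-fold higher (adjusted p = 0.00986), in all 8 fits on 7 arrays. It was the only call among 25 Wnt pathway genes, and old ad libitum minus young was 0.97. Ptprq, a receptor phosphatase known from the inner ear, was 3.36-fold higher (adjusted p = 0.0134), with old restricted 1 highest at -4.61. With normexp it differed by 0.65 (adjusted p = 0.0337). Adam34, a member of the ADAM family, was well above background on no young array and passed the filter on dim probes through the old restricted arrays alone. Its group means were -9.03 and -5.97 (adjusted p = 0.018), a rise of 7.02-fold with the young arrays set at the bound. With normexp it differed by only 0.46 (adjusted p = 0.0317). Its call held in 3 of the 4 fits on 7 arrays in which it could be tested, and was lost without young 3. Those 4 fits each left out a young array, so how the call depends on single old restricted arrays was not tested. Of the prostaglandin genes, Ptgs1, or cyclooxygenase 1, and Ptger2, a receptor for prostaglandin E2, were higher by 1.29-fold and 1.16-fold (adjusted p = 0.0186 and 0.0337), but the second probe of Ptgs1 gave -0.19 (adjusted p = 0.81). Of these 2 calls, 0 held without young 3, old restricted 1 or old restricted 4, and 1 to 2 held without any 1 of the other arrays.

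Several of the largest falls were in transport genes of low signal. Cftr, the epithelial chloride channel, stood at -5.10, -4.21, -4.26 and -4.11 in the 4 young arrays and -7.15, -5.64, -7.82 and -6.33 in the 4 old restricted arrays, or 4.97-fold lower (adjusted p = 0.0402), and was well above background on 2 of the 4 old restricted arrays. Car4, a membrane-bound carbonic anhydrase, stood at -5.15, -5.01, -4.52 and -5.92 in the 4 young arrays and -7.42, -6.84, -7.28 and -7.03 in the 4 old restricted arrays, or 3.98-fold lower (adjusted p = 0.018), and again was above background on 2 of the restricted arrays. Old ad libitum minus young was -1.29 for Cftr and -0.95 for Car4. Aqp3, a water and glycerol channel, was 1.56-fold higher (adjusted p = 0.0231). Of the 3 calls among 15 carbonic anhydrases and aquaporins, Aqp4 included, 1 held without old restricted 4, and 2 to 3 held without any 1 of the other arrays. Cftr was called in 1 of 8 fits on 7 arrays, the one without old restricted 2. With normexp the differences were -1.0 for Cftr, -0.59 for Car4 and 0.16 for Aqp3, of which Aqp3 did not pass (adjusted p = 0.103).

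The other named falls were mostly in genes of low signal. Mup4, of the multigene major urinary proteins, was 4.13-fold lower (adjusted p = 0.0462) and was called in none of the 8 fits on 7 arrays. Chst3, a sulfotransferase of chondroitin chains, was 2.42-fold lower (adjusted p = 0.0491). The olfactory receptors Or4c52 and Or2t1 and the amine receptor Taar5, of multigene families whose probes can read related genes, were called lower (adjusted p = 0.0273, 0.0422 and 0.0377). Or4c52 differed by -0.93 ± 0.16 and Taar5 by -0.80 ± 0.16. Or2t1 and the growth factor Fgf20 were above background on no old restricted array. Their fitted falls were 1.83-fold and 1.84-fold, which the rule for bounds left unchanged. Their group means were -7.03 and -7.90 for Or2t1 and -6.84 and -7.72 for Fgf20 (adjusted p = 0.0382). Tmprss11d, a membrane serine protease, was 1.79-fold lower (adjusted p = 0.00897) and was called in all 8 fits, and Lrrc7, a scaffold of synapses, was 1.72-fold lower (adjusted p = 0.0245), with -0.87 at its second probe. Fgf20, Or2t1 and Chst3 passed the filter on dim probes in 4 of the fits on 7 arrays, and the call held in 1 of those 4 for Fgf20 and for Chst3 and in none for Or2t1. Fgf20 and Or2t1 passed the filter through the young arrays alone, so for them those fits each left out an old restricted array. The sizes of these falls depended on the background correction. With normexp the differences were -0.85 for Mup4, -0.47 for Tmprss11d and -0.48 for Lrrc7, which still passed, and -0.12 for Chst3, -0.26 for Or4c52, -0.048 for Or2t1, -0.20 for Taar5 and -0.11 for Fgf20, which did not.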

How the data were processed

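RNA of L6 ganglia was labelled with Cy3, per the labels' protocols, for Agilent arrays read in 1 colour. The authors deposited linear intensities for every spot, made with Agilent Feature Extraction 10.7 per the submitters' processing notes, and background-subtracted by that software per the file headers. No scaling between arrays had been applied by the authors. Each array carried 58717 spots of 30367 gene probes, of which 17998 probes were given a symbol through RefSeq accessions.

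Processed intensities were taken to log2 and scaled by subtracting the array's own 75th percentile. Control spots and outlier spots were left out, saturated ones stayed in, and spots of a probe were averaged. Probes well above background on at least 4 of the 8 arrays were tested, with the brightest probe for each gene. Old restricted and young arrays were compared with limma 3.58.1 (lmFit, eBayes) in R 4.3.3, and p-values were adjusted by Benjamini-Hochberg over 20625 genes. The procedure was tested on simulated data. Old ad libitum values came from a fit of 11 arrays, without old ad libitum 1. Array numbers are those in the source labels, which differ from those in the titles.

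The members and lists were chosen with earlier results of these data known. Named genes were the 15 largest rises and 15 largest falls with a symbol, an adjusted p under 0.05 and no overlap, and up to 4 genes of each list with the smallest p. Bhlhe40, Serpinh1, Lamc1, Fa2h, Sox10, Scd2, Elovl2, Idi1, Gss and Wee1, further called list members, were named after their values were seen, as were Gal, Vip, Atf3, Isg15, Ckm and Cd68. Same-numbered young and old restricted arrays did not deviate together, with correlations of 0.0781, -0.00258, 0.00252 and -0.00458 for numbers 1 to 4, so the numbers were not taken as pairs. A few called list members are counted but not reported here by name. Alternatives were other scalings, background correction, filters, probe rules, fits and thresholds, each array left out in turn, and the dark spots left out. The number of arrays limits the precision. Promoters were RefSeq's, of GRCr8. Figures were drawn with matplotlib 3.10.9.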

Additional observations from a re-analysis of the deposited data

Results flagged for a closer look

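In 18 of 250 groups of 4 arrays, for 125 genes described above, 1 array lay far from the other 3: its gap to the nearest of them, as a share of the whole range of the group, was above the critical value of Dixon's test for 4 samples. Chance flags about 1 in 20 groups. On old restricted 1, the share was 0.844 for Gss and 0.921 for Ptprq. On old restricted 2, the share was 0.852 for Idi1 and 0.964 for Ptgs1. On old restricted 3, the share was 0.848 for Scd, 0.893 for Reg3a and 0.862 for Reg3b. On old restricted 4, the share was 0.847 for Aqp4. On young 1, the share was 0.867 for Nfil3, 0.866 for Atf3, 0.890 for Gal, 0.863 for Vip, 0.943 for Lpl and 0.851 for Cftr. On young 2, the share was 0.894 for Ckm. On young 3, the share was 0.928 for Nefl. On young 4, the share was 0.831 for Cd68 and 0.862 for Adipoq. Young 4 also stood apart in its median correlation with the other 7 arrays, at 0.978 against 0.995 to 0.996, a share of 0.950. The dark streak lies on that array and holds the spot of Cd68.

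For 13 of the genes described, the old groups differed in the fit of 11 arrays (limma, adjusted p under 0.05). Old restricted minus old ad libitum was -0.49 for Angptl4, 1.0 for Aqp4, -0.65 for Bdnf, -0.64 for Bmal1, -0.57 for Ccnd2, -0.53 for Cd34, -0.75 for Cx3cl1, 1.13 for Dbp, -1.89 for Or2t1, 1.16 for Per2, -0.36 for Slc1a3, 0.41 for Tef and 0.46 for Wee1. These values share the restricted arrays with the comparison against young. With 1 of the 11 arrays left out in turn, Per2 was called in all 11 fits, and the calls held in 2 fits for Angptl4, 3 for Aqp4, 5 for Bdnf, 3 for Bmal1, 2 for Ccnd2, 1 for Cd34, 8 for Cx3cl1, 7 for Dbp, 6 for Or2t1, 5 for Slc1a3, 5 for Tef and 6 for Wee1. With all 12 arrays in the fit none of them passed, and the differences were -0.42 for Angptl4, 0.92 for Aqp4, -0.73 for Bdnf, -0.43 for Bmal1, -0.65 for Ccnd2, -0.15 for Cd34, -0.42 for Cx3cl1, 1.05 for Dbp, -1.95 for Or2t1, 1.5 for Per2, -0.33 for Slc1a3, 0.11 for Tef and 0.46 for Wee1. Or2t1 was above background on no old restricted array, so its value is a fitted one and no measured size. Slide row and diet cannot be told apart between the old groups.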

How the results depend on the processing

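Counts of called genes stayed within 1.5 times of 879 under quantile normalization, median centring, normexp correction, the deposited series table, the stricter filter, the mean of probes, every probe alone, kept outlier spots, an intensity trend and the dark spots left out. Normexp gave 687 calls and kept 561 of the 879 (63.8%). Of the 101 called genes named, 22 had differences smaller by over 1.5 times under normexp, 5 moved as far with the mean of probes and 2 with outlier spots kept (Lamc1 to -0.010, Tef to 0.73), against 0 under quantile normalization, median centring, the series table, array weights or the dark spots left out. The offset of 50 that normexp adds lowers the differences of dim probes by construction. Counts of calls were 349 (101 higher, 248 lower) with no filter on dim probes, 521 (352 lower) with 11 arrays sharing the spread, 1346 (395 higher) with array weights, 47 (17 and 30) at an adjusted p under 0.01 and 9 (4 and 5) against a fold of 1.2. With all 12 arrays sharing the spread 4 genes were called, 3 higher and 1 lower. Leaving out 1 array gave 121 to 755 calls, 32 to 269 higher and 89 to 486 lower. Between the old groups the count was 0 with all 12 arrays and 1 to 910 with 1 array left out.

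With the replicate number as a block, 4 genes were called, 2 higher and 2 lower, and 1 between the old groups, but the numbers do not pair the arrays.

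The mean of probes turned Sox2 to 0.17 and Nid2 to 0.16. With 1 array left out, the difference ran from -0.73 to 0.042 for Atf3, -1.28 to 0.23 for Gal and -1.09 to 1.09 for Vip, each positive without young 1, and from -0.068 to 0.20 for Csf1r and -0.028 to 0.31 for Cybb, each negative without young 2. For Ckm it ran from -0.46 to 0.49, with 0.49 without young 2, 0.064 without old restricted 3 and 0.097 without old restricted 4. The cause was not tested. Over the genes named and all settings, 2154 values kept their direction and side of the threshold, 1071 kept direction but lost the call, 22 gained it and 10 reversed. Genes well above background on few arrays of a group have only bounds or fitted values there.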
